A study of Mus musculus with 9 samples.

Results

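The mouse Schlafen genes form a cluster on chromosome 11, and 7 of them were examined here in stimulated plasmacytoid dendritic cells (pDCs): *Slfn1*, *Slfn2*, *Slfn3*, *Slfn4*, *Slfn5*, *Slfn8* and *Slfn9*. They were picked by gene symbol from the 52550 genes of the expression table, and all 7 had reads, among 17664 genes with reads. The table held 4 other genes whose symbol begins with Slfn, and these are described where they bear on the 7.

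The experiment comprised 9 samples of splenic pDCs from C57BL/6 mice, 3 from each of 3 *Ncf1* genotypes. G/G mice were wild type, G/A mice were heterozygous and A/A mice were homozygous for a knock-in that changes an arginine of NCF1, a subunit of the NADPH oxidase NOX2, to histidine. Per the study's methods the mice were female and 10 to 12 weeks old, founders had been crossed with C57BL/6J mice, and pDCs were sorted as CD11c-intermediate SiglecH+ PDCA1+ cells. Cells of every genotype received the TLR7/-8 ligand R848 (10 μg/mL) for 12 hours, so the design has no unstimulated sample. Every level below comes from a single library, A/A replicate 1; the remaining 8 were not analysed here. No genotype was therefore compared, no value has a replicate error, and nothing below shows whether a gene was induced by R848.

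Schlafen proteins take their name from the German word for sleep, because the first members slowed T cell growth when overexpressed. They share a core domain that binds RNA, and several family members cut or protect tRNA. Short members consist of little more than the core, intermediate members carry a linker after it, and long members end in a helicase-like domain. Several Schlafen genes are known to be induced by type I IFN, which pDCs produce in large amounts after TLR7 or TLR9 ligation. The pathway runs from TLR7 through MyD88 to IRF7 and IFN genes, and from the IFN receptor through JAK1 and TYK2 to transcription factors, IRF9 among them, that bind IFN-stimulated response elements (ISREs).

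The library had 31408298 reads if the smallest deposited value above 0 stands for 1 read, which was not tested. All reads and intervals below rest on this. Levels were expressed as CPM, reads per 1000000 reads of the library, and as TPM, reads per kilobase of annotated exon scaled to 1000000 over all genes. TPM was used wherever genes were compared with each other. The intervals are 95% Wilson intervals, and they cover counting error only, since amplified copies of 1 molecule were not separated by molecular identifiers. All 11 pDC markers were above the floor of 3 reads (0.0955 CPM), with a median of 374 CPM. The methods state female mice, but in this library 4 Y-linked genes had 19.0 to 102 CPM and *Xist* was listed at 0.

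The promoters of the 7 genes fell into 2 sets by short motifs, which is why a stretch of each is shown here. The motif of the second set, ACTTCCTG, was chosen after these promoters had been read, so the split is partly built in. The reference sequence is RefSeq's for GRCm38.p6, read 5′ to 3′ along the gene, and capitals mark matches to the ISRE core (GAAA and GAAA with 2 bases of any kind between them) or to the 8-base block ACTTCCTG, on either strand. The stretch of *Slfn5* covers bases 190 to 120 before the start of transcription, and the others cover the 110 bases before it.
Slfn5 (chr11:82951912-82951982, plus strand): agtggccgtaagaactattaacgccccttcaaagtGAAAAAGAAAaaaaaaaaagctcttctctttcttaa
Slfn8 (chr11:83020811-83020920, minus strand): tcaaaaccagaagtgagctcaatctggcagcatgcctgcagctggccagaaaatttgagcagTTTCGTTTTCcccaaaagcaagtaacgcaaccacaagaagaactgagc
Slfn9 (chr11:82991831-82991940, minus strand): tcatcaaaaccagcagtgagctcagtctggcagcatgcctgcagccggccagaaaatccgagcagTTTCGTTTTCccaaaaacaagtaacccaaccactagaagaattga
Slfn2 (chr11:83065002-83065111, plus strand): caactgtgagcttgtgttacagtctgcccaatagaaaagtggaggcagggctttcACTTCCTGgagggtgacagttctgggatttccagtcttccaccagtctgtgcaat
Slfn1 (chr11:83116710-83116819, plus strand): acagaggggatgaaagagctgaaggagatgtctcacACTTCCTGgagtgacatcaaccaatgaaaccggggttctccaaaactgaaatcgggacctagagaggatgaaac
Slfn4 (chr11:83175076-83175185, plus strand): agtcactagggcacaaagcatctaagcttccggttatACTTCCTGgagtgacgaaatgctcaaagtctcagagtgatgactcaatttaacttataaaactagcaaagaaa
Slfn3 (chr11:83191220-83191329, plus strand): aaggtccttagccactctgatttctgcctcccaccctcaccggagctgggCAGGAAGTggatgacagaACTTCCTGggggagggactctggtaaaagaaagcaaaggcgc

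The ISRE core, the half-site pair that IRF proteins bind, occurred in the promoters of *Slfn5*, *Slfn8* and *Slfn9*, the 3 genes of long proteins. Over the 300-base window from 250 bases before to 50 after the start, 3.99% of 27025 genes had it. In *Slfn8* and *Slfn9* the match lay on the opposite strand, 48 and 45 bases before the start, and the matched letters were the same. These 2 promoters aligned over 242 of the 250 bases before the start with 85.1% identity, so their matches are not separate finds. *Slfn8* has a second RefSeq start, 136 bases from the same match. In *Slfn5* the match lay 155 bases before the RefSeq start, which is 753 bases inside the gene as the table gives it. The *Slfn5* match runs on into a stretch of A bases. Of the 6 genes of the IFIT family, IFN-induced RNA-binding proteins, 5 had the ISRE core, as had 2 of the 11 IFN pathway genes with a promoter sequence (*Myd88* and *Stat2*). A match describes letters only, and the factor was not measured.

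The block ACTTCCTG, whose other strand holds the GGAA core that ETS factors such as PU.1 and Spi-B recognise, occurred in *Slfn1*, *Slfn2*, *Slfn3* and *Slfn4* and in none of the 3 genes of long proteins. It was chosen after the promoters had been read, and 3.86% of all genes had it. It began 74 bases before the start in *Slfn1*, 73 in *Slfn4* and 55 in *Slfn2*, and *Slfn3* had it on both strands, 60 and 42 bases before the start. The run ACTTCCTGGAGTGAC was picked as the longest that the promoters of *Slfn1* and *Slfn4* share. It occurred in 2 of the 32851 promoters of the table, their own, but as it was picked from them this count is no test. In *Slfn2* the block overlapped TTTCACTTCC, which on the other strand matches an Ets-IRF composite (GGAA and GAAA with 2 bases between them), also chosen after reading. That composite was found in 3.16% of all genes and in no other member. A search for the STAT site TTCNNNGAA, held by 9.55% of all genes, and an NF-kB site (GGG and TTCC with 3 bases between them), held by 6.31%, gave no match in these windows of the 7 genes. TATAAA, held by 15.7% of all genes, occurred in 1 of the 7, *Slfn4*, on the gene's own strand, 19 bases before the start. With 7 genes, these 3 counts show nothing particular to the family.

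**Figure D1:**
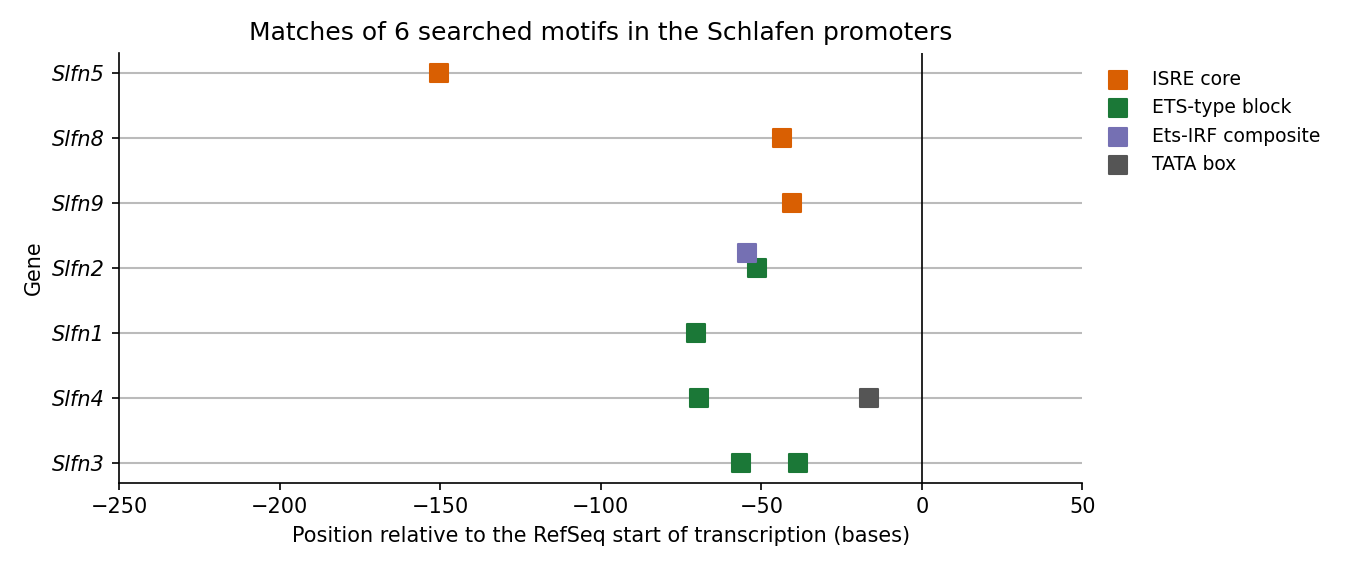
Position of motif matches (squares, at the centre of each match) in the promoter of each Schlafen gene, in bases from the RefSeq start of transcription (vertical line). Orange squares (ISRE core) appear in the 3 genes of long proteins and green squares (ETS-type block, ACTTCCTG) in the other 4 genes, beside the Ets-IRF composite of *Slfn2* (violet) and TATAAA of *Slfn4* (grey); *Slfn8* is drawn from its outer start.

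The Schlafen genes together had 95829 reads, or 3051 CPM (95% CI, 3032 to 3070), 0.305% of all reads. *Slfn2* held 53.1% of these reads (95% CI, 52.8 to 53.4), *Slfn8* 21.8% and *Slfn5* 15.4%, while each of the other 4 genes held between 1.03% and 2.96%. Per length the weight shifted further to *Slfn2*, which made up 74.7% of the summed TPM of the 7 genes. All 7 genes lay above the median protein-coding gene with reads, which had 9.96 TPM. The lowest of them, *Slfn3*, stood 2.42 times above that median and *Slfn2* stood 254 times above it.

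**Figure D2:**
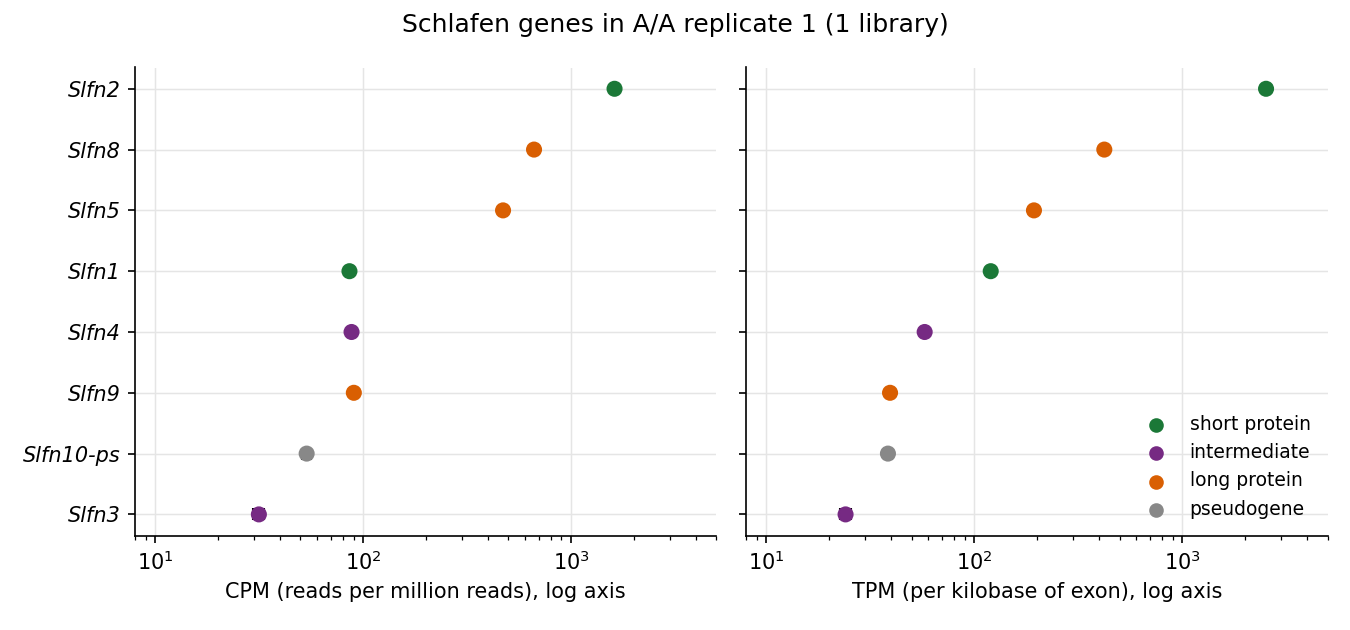
Level of each Schlafen gene and the pseudogene *Slfn10-ps* in A/A replicate 1, as CPM (left) and TPM (right) on log axes, with 95% Wilson intervals that are mostly narrower than the points. *Slfn9*, *Slfn4* and *Slfn1* line up near 90 CPM (90.3, 88.0 and 86.0) but spread from 39.4 to 120 TPM.

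Among the short members, *Slfn2*, which keeps T cells quiescent and guards tRNA from cleavage in activated T cells, was by far the higher. For *Slfn2* (ENSMUSG00000072620.3, 83065112 to 83070678 on the plus strand of chromosome 11), 50872 reads were counted, giving 1620 CPM (95% CI, 1606 to 1634) and 2532 TPM (95% CI, 2510 to 2554). It ranked 77th of all genes by reads and 46th by TPM. *Slfn1*, the founding member that arrests T cell growth when overexpressed (ENSMUSG00000078763.2, 83116849 to 83122670, plus strand), had 2702 reads, 86.0 CPM (95% CI, 82.8 to 89.3) and 120 TPM. The TPM of *Slfn2* was thus 21.1 times that of *Slfn1* (95% CI, 20.3 to 21.9). Both genes have a single annotated transcript of 2 exons, with exon lengths of 1664 bases in *Slfn2* and 1864 in *Slfn1*.

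Both short members are best known from T cells, but defining T cell genes were nearly absent from the library. Of 7 T cell markers, 4 were listed at 0 (*Bcl11b* and the CD3 chain genes *Cd3g*, *Cd3d* and *Cd3e*), and the list summed to 1.31 CPM. The 4 B cell markers summed to 6.69 CPM. In a bulk sample, fewer cells of a type and less RNA per cell cannot be told apart.

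The intermediate members were lower. *Slfn4*, a gene of macrophages and other myeloid cells that responds to IFN and TLR ligands (ENSMUSG00000000204.16, 83175186 to 83190216, plus strand), had 2765 reads, 88.0 CPM (95% CI, 84.8 to 91.4) and 57.8 TPM. *Slfn3*, which has been studied in T cells and in the differentiating gut epithelium (ENSMUSG00000018986.10, 83191330 to 83215154, plus strand), had 991 reads, 31.6 CPM (95% CI, 29.6 to 33.6) and 24.1 TPM. It was the lowest of the 7 genes on both scales. The genes stand head to tail with 1113 bases between them, and the TPM of *Slfn4* was 2.40 times that of *Slfn3* (95% CI, 2.23 to 2.58).

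Markers of myeloid cells were present beside *Slfn4*. All 7 monocyte and macrophage markers were above the floor, with a sum of 1666 CPM, of which *Ly6c2* gave 1190 CPM, and with *Lyz2* at 207, *Csf1r* at 49.0 and *Adgre1* at 25.1 CPM. The 7 neutrophil markers summed to 35.6 CPM, with *Ly6g*, *Mpo* and *Retnlg* listed at 0. Of the 7 conventional DC markers 6 were above the floor, and the list summed to 1959 CPM, of which *Ccl22* gave 1347 and *Fscn1* 428. *Zbtb46* had 106 and *Clec9a* 73.9 CPM, while *Clec10a* had 2.36, *Xcr1* 1.72 and *Cd209a* 0 CPM. The part of such cells in the reads of *Slfn4* or any other member was not tested.

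The long members ran over a wide range. *Slfn8* (ENSMUSG00000035208.16, 83002158 to 83020810, minus strand) was the second gene of the family, with 20861 reads, 664 CPM (95% CI, 655 to 673) and 422 TPM. *Slfn5*, a nuclear protein whose human counterpart restrains IFN-induced transcription (ENSMUSG00000054404.13, 82951349 to 82964840, plus strand), had 14802 reads, 471 CPM (95% CI, 464 to 479) and 194 TPM. *Slfn9* (ENSMUSG00000069793.12, 82978390 to 82991830, minus strand) had 2836 reads, 90.3 CPM (95% CI, 87.0 to 93.7) and 39.4 TPM. *Slfn8* and *Slfn9* both encode 910 residues and hold the same ISRE-core letters at nearly the same place (shown above), but the TPM of *Slfn8* was 10.7 times that of *Slfn9* (95% CI, 10.3 to 11.2). *Slfn8* exceeded *Slfn5* by 2.18 times in TPM (95% CI, 2.13 to 2.23).

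In TPM the order from the highest was *Slfn2*, *Slfn8*, *Slfn5*, *Slfn1*, *Slfn4*, *Slfn9* and *Slfn3*. Each of the 6 neighbouring pairs differed beyond counting error, and the closest was *Slfn4* over *Slfn9* at 1.47 times (95% CI, 1.39 to 1.55). The ends of the order, *Slfn2* and *Slfn3*, were 105 times apart (95% CI, 98.8 to 112). By reads alone *Slfn9*, *Slfn4* and *Slfn1* could not be put in order: the ratio of *Slfn9* to *Slfn4* was 1.03 (95% CI, 0.973 to 1.08) and that of *Slfn4* to *Slfn1* was 1.02 (95% CI, 0.970 to 1.08). The length of exon, 1864 bases in *Slfn1* against 3964 in *Slfn4* and 5965 in *Slfn9*, separated them. Whether the order would hold in another A/A library was not tested.

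Neither set of promoters went with one level. The 3 genes with an ISRE core had 39.4, 194 and 422 TPM, and the 4 genes with ACTTCCTG had 24.1, 57.8, 120 and 2532 TPM. The ranges overlapped, and with 1 library this is a description.

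Set beside the genes that carry the IFN signal, *Slfn2* ranked with the most abundant. Of the 12 IFN pathway genes, from the receptor and adaptor *Tlr7* and *Myd88* to the transcription factors, all 12 had a lower TPM than *Slfn2*. The nearest was *Irf7*, the master regulator of type I IFN in pDCs, at 2309 TPM, but with the length of the longest transcript in place of all exon bases *Irf7* was higher (2155 TPM against 2027 for *Slfn2*). *Slfn8* had a higher TPM than 10 of the 12, *Slfn5* than 7, *Slfn1* than 4, *Slfn4* than 2, and *Slfn9* and *Slfn3* than 1 each. With the longest transcript in place of all exon bases, *Slfn2* exceeded 11 of the 12, *Slfn5* 5 (falling below *Tyk2* and *Irf9*), *Slfn1* 3 (falling below *Tbk1*) and *Slfn3* 0, while the counts for *Slfn8*, *Slfn4* and *Slfn9* stayed at 10, 2 and 1. *Slfn3* and the kinase gene *Irak4* could not be told apart over all exon bases, with a TPM ratio of 1.04 (95% CI, 0.962 to 1.13). Among the transcription factors that act on ISREs, *Stat2* had 492 and *Irf9* 163 TPM.

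The IFIT family was higher than the Schlafen family as a whole. The 6 IFIT genes had a median of 1678 TPM, against 120 for the 7 Schlafen genes and 164 for the 12 pathway genes. Only *Ifit3* (4597 TPM) and *Ifit2* (3072 TPM) of the IFIT genes exceeded *Slfn2*, while *Ifit1* had 1718, *Ifit3b* 1637 and *Ifit1bl1* 1411 TPM. The other 6 Schlafen genes were each lower than 5 of the IFIT genes and higher than *Ifit1bl2*, at 6.32 TPM. All 6 IFIT genes, all 12 pathway genes and all 7 Schlafen genes were above the floor of 3 reads. Whether reads of an IFIT gene were counted on another IFIT gene was not tested.

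**Figure D3:**
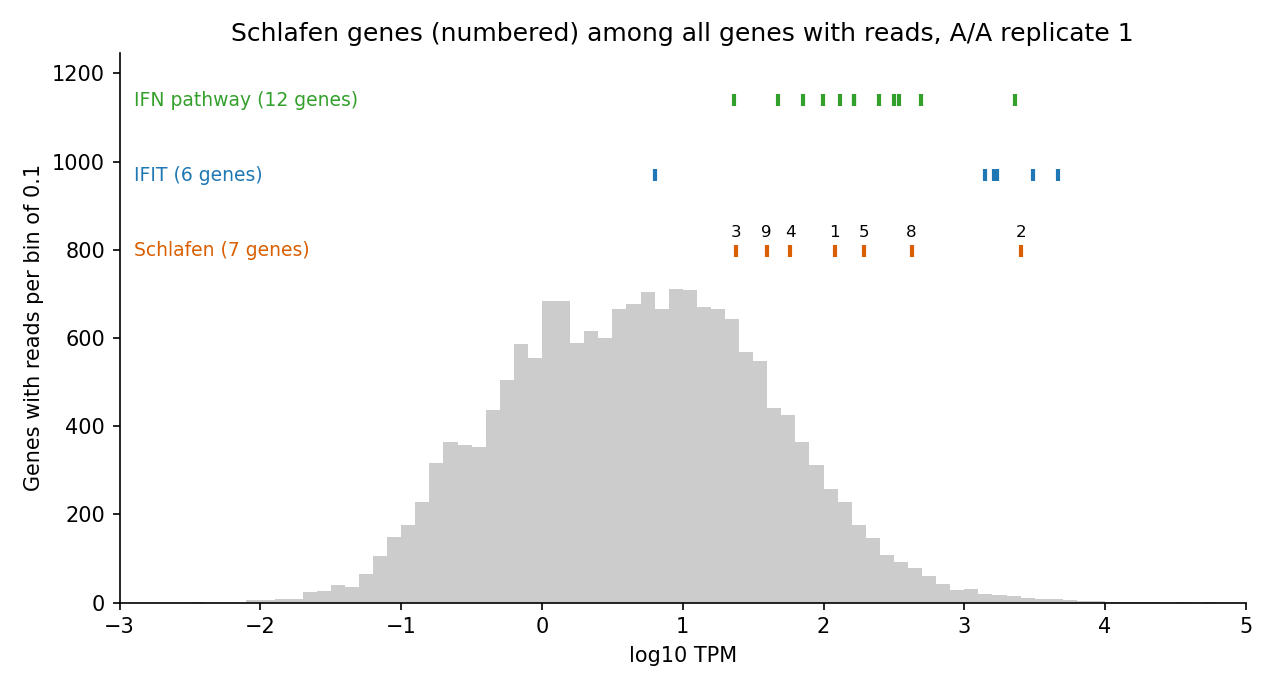
Histogram of log10 TPM of all genes with reads in A/A replicate 1 (grey, bins of 0.1), with ticks above it for the Schlafen genes, labelled by number, the IFIT genes and the IFN pathway genes. Each Schlafen gene lies to the right of the median protein-coding gene (9.96 TPM), and *Slfn2* lies among the IFIT genes.

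Levels also varied along the cluster, which spans 335 kb from *Slfn5* to *Slfn14*. *Slfn14*, a ribosome-associated endonuclease known from reticulocytes, was listed at 0, which allows up to 0.0670 TPM at 3 reads, and it lies 59955 bases from *Slfn3*. *Slfnl1*, a Schlafen-like gene on chromosome 4, was also listed at 0. The pseudogene *Slfn10-ps*, between *Slfn8* and *Slfn2*, had 1682 reads and 38.5 TPM, and *Slfn9* over *Slfn10-ps* gave a TPM ratio of 1.02 (95% CI, 0.963 to 1.09), so they could not be told apart. Of 15 annotated genes outside the 7 that lie in or overlap the stretch from *Slfn5* to *Slfn3*, 10 had no reads. The 15 include *Slfn10-ps* and the antisense gene *Slfn5os*. In the whole library 17664 of 52550 genes had reads, so this count shows nothing particular to the cluster. On the other side of *Slfn5*, the protein-coding neighbour *Unc45b* had 7 reads (0.129 TPM).

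A noncoding gene between *Slfn3* and *Slfn14* had a higher TPM than 4 of the 7 Schlafen genes. *AI662270*, an annotated processed transcript that begins 8421 bases after the end of *Slfn3* on the same strand, had 4688 reads, 149 CPM and 128 TPM, or 5.33 times the TPM of *Slfn3*. Exons of the pseudogene *Gm11427* cover 16.2% of its exon bases, and *Gm11427* itself had 448 reads and 12.5 TPM. It was singled out after its value was seen.

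**Figure D4:**
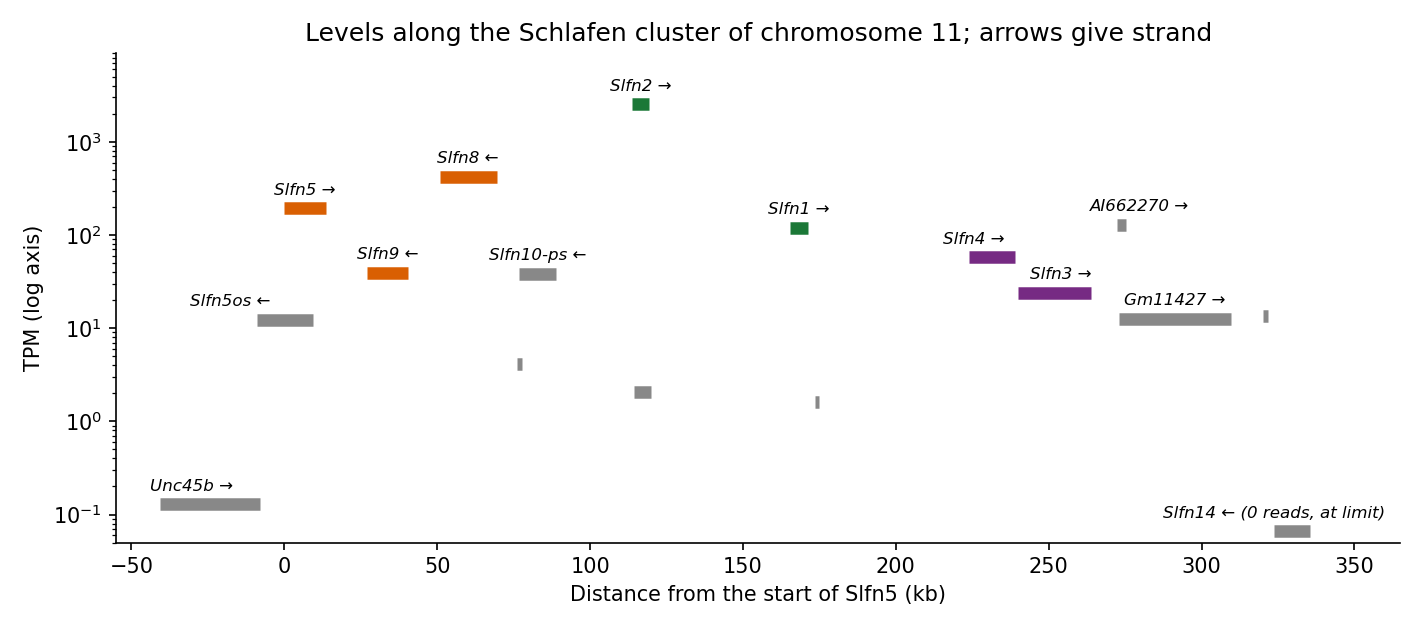
TPM (log axis) of annotated genes with reads along the Schlafen cluster, from *Unc45b* to *Slfn14*, against the distance in kb from the start of *Slfn5*; each segment spans 1 gene (drawn at least 1.5 kb long), coloured for the 7 Schlafen genes (green short, purple intermediate, orange long) and grey for others, with arrows for the strand. *Slfn2* stands highest at 2532 TPM, and *Slfn14*, with 0 reads, is drawn at its limit of 0.0670 TPM.

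Because the genes arose by duplication, reads could be counted on the wrong copy. Over the 21 pairs of members, the coding sequences were 57.7% to 92.7% identical in local alignments, with a median of 63.6%. The closest pairs were *Slfn8* and *Slfn9* (92.7% over 2733 bases) and *Slfn3* and *Slfn4* (91.9% over 1781 bases). *Slfn2* was most like *Slfn3* (75.5%) and *Slfn4* (75.4%), and *Slfn5* was 57.7% to 63.6% identical to the other members. The likeness of *Slfn8* and *Slfn9* ran on into their promoters, where 242 of the 250 bases before the start aligned with 85.1% identity.

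**Figure D5:**
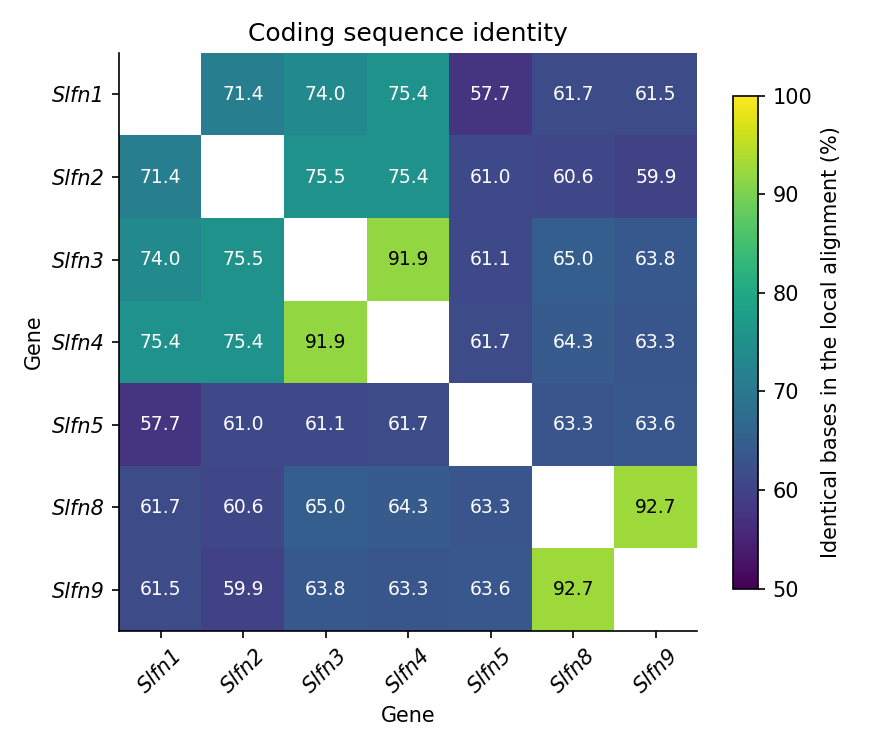
Percent of identical bases in the local alignment of the coding sequences of each pair of Schlafen genes (cells, with the value printed, and colour scale from 50% to 100%). The pairs *Slfn8* with *Slfn9* (92.7%) and *Slfn3* with *Slfn4* (91.9%) stand out from the other pairs.

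Identical stretches long enough to confuse a whole read were few. Of all windows of 150 bases, the length of 1 read, in the transcripts of each gene, 0% occurred in a transcript of another gene for *Slfn1*, *Slfn2*, *Slfn4* and *Slfn8*. The share was 1.29% for *Slfn3*, all with *Gm11427*, and 1.46% for *Slfn9*, all with *Slfn10-ps*. With windows of 50 bases it was 0.606% for *Slfn1*, 4.27% for *Slfn2*, 11.3% for *Slfn4*, 11.9% for *Slfn9*, 14.6% for *Slfn8* and 16.0% for *Slfn3*. The partner with most of these windows was *Slfn10-ps* for *Slfn8* and *Slfn9* (10.1% and 8.10%), and *Slfn4* for *Slfn3* (7.39%). The values of *Slfn3*, *Slfn4*, *Slfn8*, *Slfn9* and *Slfn10-ps* are thus uncertain to the extent that such reads were counted, and how shared reads were counted is not given in the sources used here.

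For *Slfn5*, 11.1% of windows at 50 bases and 5.46% at 150 were shared. All of those at 150 bases, and 467 of the 700 at 50, were shared with its antisense gene. At 50 bases 635 genes held at least 1 of the windows. *Slfn5os*, on the opposite strand, covers 8.84% of the exon bases of *Slfn5* and had 164 reads, so *Slfn5* had 90.3 times as many. Since the use of strand is not stated, reads of the 2 genes cannot be told apart where their exons overlap. With all its reads kept but divided by only the 5767 exon bases free of other genes, *Slfn5* would have 213 TPM in place of 194. No read in the overlap was removed, so 213 TPM is an upper limit for the free bases. No other member had exons of another gene over its own.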

How the data were processed

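Splenic pDCs stimulated with R848 were profiled by mRNA-Seq (150 bp paired-end reads, per the paper's methods, which compared genotypes with DESeq2). The submitters' processing notes name HISAT2, StringTie and the builds mm10 and mm8, without roles; gene coordinates in the table are those of GRCm38 (mm10). The authors deposited a normalized signal per gene with no stated unit. Every value above 0 was a whole multiple of 1.19 (100% within 0.0001), so reads were recovered by division, 31408298 in all. No count test was run, since only 1 library was analysed. Gene identifiers were matched to GENCODE M21 for 99.7% of genes, 95.2% with identical coordinates, for exon lengths and coding sequences. Promoters came from RefSeq (GRCm38.p6), with 8 entries for the 7 genes, *Slfn8* having 2. Coding sequences were aligned locally with Biopython 1.88 (match 2, mismatch -1, gap opening -5, gap extension -0.5). Neighbouring levels were compared by exact Clopper-Pearson intervals of their ratio. Python 3.11.15, numpy 2.4.6, scipy 1.17.1, pandas 2.3.3 and matplotlib 3.10.9 were used. Recovery was tested on 3 simulated libraries of 52550 genes built from whole counts, with 100% of values recovered. That checks the arithmetic only. Whether a step of 1.19 in the deposited signal stands for 1 read was not tested. The genes named are the Schlafen genes, the listed IFN pathway, IFIT and marker genes, and neighbours of the cluster. Members and lists were chosen with earlier results of these data known. No genotype comparison was made. Some genes are not reported here.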

Additional observations from a re-analysis of the deposited data

How the results depend on the processing

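No paired analysis was possible because only 1 library was analysed; for the same reason no replicate was left out. The summed level of the 7 Schlafen genes, 3051 CPM, became 3380 CPM without the reads of the 10 highest genes, by construction, and 3389 TPM over all exon bases or 2735 TPM with the longest transcript. Their median percentile among genes with reads, 88.7, became 96.2 among all genes, 86.2 among genes with at least 10 reads and 84.1 among protein-coding genes with reads, shifts that follow from the genes counted, and 93.6 with reads per kilobase of exon, the setting in which 3 of the 7 genes stood higher and 4 lower. All 21 pairs of members kept their TPM order with the longest transcript. The order also held with exon bases free of other genes, but that setting changed only the length of *Slfn5*. No read was removed in it, so it cannot show whether reads shared with other genes affect the order. Counts of members with each motif did not change when only the 250 bases before the start were searched, a window chosen after the sequences were seen. Depth did not limit the order in TPM, as the lowest member had 991 reads, but the absence of replicates limits every value. The longest transcript, as an alternative chosen after the values were seen, lowered the number of IFN pathway genes below 4 of the 7 members and changed no number of IFIT genes below a member.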
